A study of Mus musculus with 12 samples.

Results

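Phox2a, Hand1, Hand2, Gata2, Gata3, Isl1, Insm1 and Sox11 are 8 genes for transcription factors of the sympathetic neuroblast. They were taken by name, for their known role, from the 25128 genes and unnamed targets measured, with earlier results of these data known. Counts of members beside the share of all genes and targets are therefore descriptions and not an independent test. RNA was measured in 3 mouse cell lines: N18, a neuroblastoma line, BV2, a microglial line, and AtT20, a line from a pituitary tumour of corticotrophs. Each line was grown untreated on 4 plates in DMEM with 10% FBS, penicillin and streptomycin, and each plate gave 1 single-color NimbleGen array. Every group is 1 established line, so the plates measure the spread between cultures of a line and not between lines of a kind.

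Sympathetic neurons and the chromaffin cells of the adrenal medulla arise from the neural crest, and neuroblastoma is a tumour of this lineage. In the early sympathetic ganglion, BMP signals turn on a first set of factors that includes the homeodomain factor Phox2a and the basic helix-loop-helix factor Hand2, and the zinc finger factors Gata2 and Gata3, the LIM homeodomain factor Isl1, the zinc finger factor Insm1 and the SoxC factor Sox11 join them as neuroblasts divide and differentiate. Several of these factors are known to maintain each other's expression and to act on the genes for noradrenaline synthesis and for neurite growth.

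The start regions of these genes are shown because most of these genes were higher in N18 than in BV2 and because members of the set are themselves DNA-binding factors. RefSeq windows on GRCm38.p6 were found for 6 of the 8 genes, 7 windows in all, and the 250 bases before each start were searched on both strands for the letters GATAA (the core of the site that GATA factors read), CATCTG (an E-box that HAND factors read with their partners), TAATTA (a homeodomain site) and AACAAT (a SOX site). GATAA was present before the start of 4 genes, Hand2, Isl1, Phox2a and Sox11, and in 22.6% of all 32851 windows of this length. CATCTG (in 14.4% of all windows) and TAATTA (4.84%) were found only before Hand2 among these genes, and AACAAT (9.42%) before none. The full 250 bases are printed for Hand2 (chr8:57320733-57320982, + strand), and for Isl1 (chr13:116309768-116309832, - strand), Phox2a (chr7:101818081-101818145, + strand) and Sox11 (chr12:27342719-27342767, - strand) the stretch around the GATAA. All run 5′ to 3′ on the strand of the gene, and capitals mark the letters found, where TAATTATC in Hand2 is a TAATTA that overlaps a GATAA of the other strand. The Sox11 stretch ends at the base before the start.
Hand2: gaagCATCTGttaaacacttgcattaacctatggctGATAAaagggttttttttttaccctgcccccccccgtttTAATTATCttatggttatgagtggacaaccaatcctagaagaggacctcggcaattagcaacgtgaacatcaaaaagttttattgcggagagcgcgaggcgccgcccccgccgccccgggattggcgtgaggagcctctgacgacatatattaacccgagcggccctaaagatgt
Isl1: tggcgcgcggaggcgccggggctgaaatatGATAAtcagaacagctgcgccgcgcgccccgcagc
Phox2a: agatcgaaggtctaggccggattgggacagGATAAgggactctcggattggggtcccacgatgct
Sox11: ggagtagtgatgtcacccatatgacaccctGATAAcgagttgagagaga

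Before the levels, the arrays themselves differed. On the plates labelled AtT20 the interquartile range of an array was 0.38 to 0.78 (log2), against 1.28 to 1.73 for BV2 and 1.91 to 2.21 for N18. Levels are given here per plate, as the log2 of the averaged probes of a gene from which the mean of 10 seminal proteins was subtracted. These are proteins that none of the lines is likely to make. A gene counted as detected when the mean of 4 plates was above 2 SD of those proteins. This threshold was 0.37 ± 0.11 (SD, n = 4) on the plates labelled AtT20, 0.56 ± 0.15 for BV2 and 0.74 ± 0.10 for N18. In BV2, 10 of 11 microglia markers were detected, with Csf1r, the receptor for the growth factor of microglia, at 4.70 ± 0.39. In N18, 4 of 11 were (Itgam, Tyrobp, Trem2 and Irf8, at 0.80 to 1.52), with Csf1r at -0.06 ± 0.12. Known targets of the sympathetic factors were detected for 14 of 17 in N18, 7 of 17 in BV2 and 6 of 17 on the plates labelled AtT20. On the plates labelled AtT20, Pomc, the hormone gene of corticotrophs, was below the threshold at 0.29 ± 0.26, and 2 of 9 corticotroph markers were detected, against 5 of 9 in N18 and 3 of 9 in BV2, where Pomc itself was detected at 0.67 ± 0.12. Which plates shared a slide is not known here, so that slide and line cannot be told apart.

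In N18, 7 of 8 members stood above the threshold, all but Hand1, where 55.4% of all genes and targets did. There were 4 of 8 detected on the plates labelled AtT20 (Hand2, Gata2, Gata3 and Insm1), with 35.0% of all as the background, and on the BV2 plates 2 of 8 (Hand2 and Gata2), with a background of 53.3%. When at least 2 probes had to pass, or with the median of probes, 6 were detected in N18 (Gata3 was lost), 2 on the plates labelled AtT20 and 1 in BV2. The shares of all genes and targets under these rules were not counted. The median level of the members was 2.70 in N18, 0.52 on the plates labelled AtT20 and 0.18 in BV2. The medians over all genes and targets were 0.93, 0.16 and 0.64. Because RNA of whole plates was measured, fewer cells with a transcript and less of it per cell cannot be told apart.

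**Figure D1:**
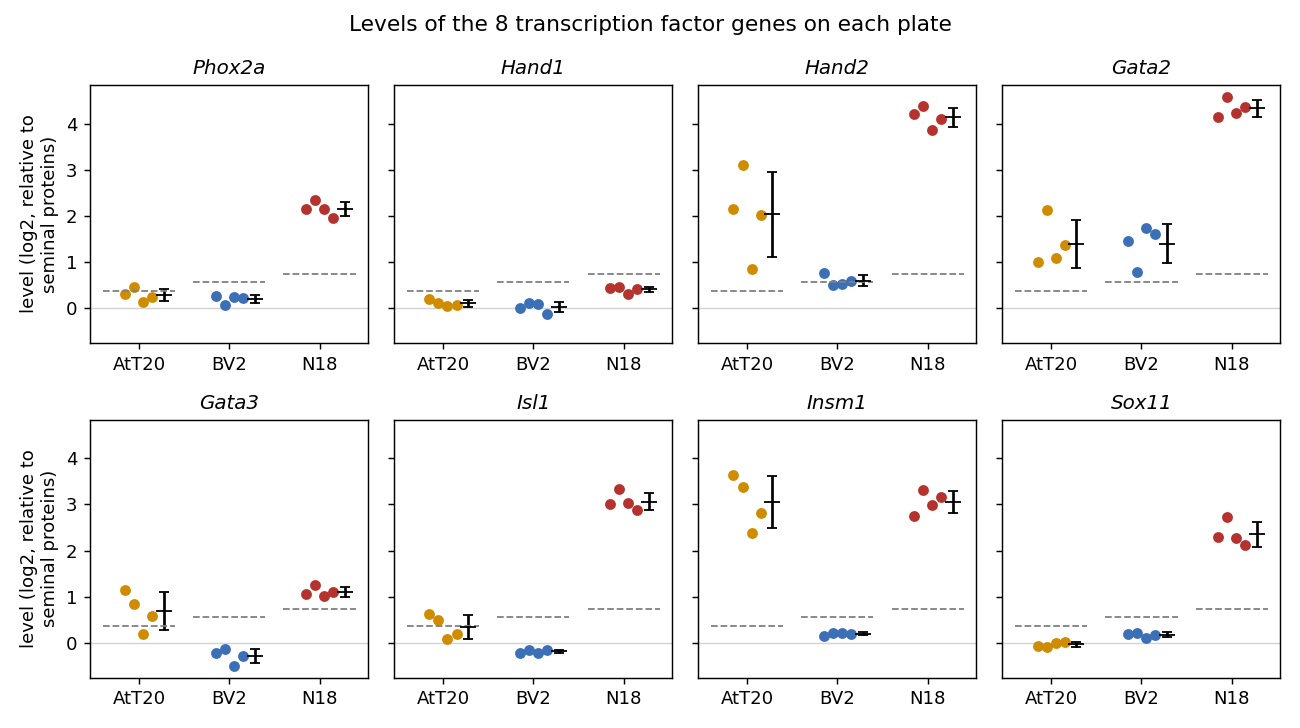
Level of each of the 8 genes on each of the 4 plates per line (points; y axis in log2 relative to the seminal proteins), with the mean ± SD beside them (black) and the line's threshold (dashed). The N18 plates sit above every BV2 plate for all 8 genes, while Insm1 is as high on the plates labelled AtT20 as in N18.

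Phox2a, a homeodomain factor of noradrenergic neurons, had levels of 2.14, 2.35, 2.15 and 1.96 on N18 plates 1 to 4. In BV2 it was between 0.07 and 0.26 and passed on no plate. The plates labelled AtT20 gave 0.13 to 0.46, with 1 plate above the threshold and a mean of 0.29 ± 0.14 below it. On this scale no plate of another line came near the N18 plates. After quantile normalization the highest plate labelled AtT20 was at 11.15 and the lowest N18 plate at 11.33.

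Hand2, a basic helix-loop-helix factor needed for the noradrenergic phenotype, was high in N18 on every plate, with levels of 4.20, 4.37, 3.86 and 4.10. Its levels on the plates labelled AtT20 were 2.16, 3.11, 0.84 and 2.01, and this SD of 0.93 was the largest of any member in any line. On the BV2 plates the levels were 0.76, 0.51, 0.52 and 0.59, and the mean of 0.59 ± 0.11 was barely over the threshold, and under it without BV2 plate 1 (0.54). On this scale all N18 plates lay above all AtT20-labelled plates, which in turn lay above all BV2 plates. Hand1, its relative, which serves heart and placenta and also appears in sympathetic cells, was not detected in any line, though 1 of its 3 probes, 1142, was above the threshold on the plates labelled AtT20 (0.56 ± 0.14). Its N18 plates were at 0.31 to 0.45 and its BV2 plates at -0.13 to 0.11.

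Gata2, known in blood stem cells and pituitary as well as in sympathetic neurons, was, with Hand2, detected in all 3 lines. Its levels were 4.15, 4.58, 4.23 and 4.36 on the N18 plates. The BV2 plates gave 1.45, 0.78, 1.75 and 1.62 and the plates labelled AtT20 gave 1.00, 2.13, 1.08 and 1.37, so that these 2 groups overlapped while N18 lay above both. Gata3, which keeps sympathetic neurons alive and supports their enzymes for noradrenaline, was much nearer its threshold, with 1.05, 1.26, 1.02 and 1.11 on the N18 plates. The plates labelled AtT20 gave 1.14, 0.85, 0.19 and 0.58, which overlapped N18, with 3 of 4 plates above the threshold. The BV2 plates were all below zero, from -0.50 to -0.13.

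Isl1, a LIM homeodomain factor of sympathetic and sensory neurons, was at 3.02, 3.33, 3.02 and 2.88 in N18 and at -0.23 to -0.15 in BV2. Plates labelled AtT20 ran from 0.07 to 0.62 with 2 of 4 plates above the threshold, and the mean of 0.34 ± 0.26 was just under it, and over it without plate 3 (0.43) or plate 4 (0.39). Sox11, a SoxC factor of dividing and newly formed neurons, was at 2.30, 2.73, 2.26 and 2.12 in N18. It was at 0.10 to 0.22 in BV2 and at -0.10 to 0.02 on the plates labelled AtT20, with no plate above a threshold in either. For both genes the N18 plates were, on this scale, far from those of the other lines.

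Insm1, a zinc finger factor of neuroendocrine cells that supports division of sympathetic precursors and is also known in pituitary cells, had another order of levels. It was at 2.75, 3.31, 2.99 and 3.17 in N18 and at 3.63, 3.38, 2.38 and 2.82 on the plates labelled AtT20, with means of 3.06 ± 0.24 and 3.05 ± 0.57. The BV2 plates were at 0.15 to 0.22. On this scale the first 2 groups overlapped and BV2 stood apart.

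N18 plate 2 was the highest N18 plate for all 7 detected members on the seminal protein scale, and for 2 of 7 after quantile normalization, which gives all arrays the same distribution of values. Plate 3 labelled AtT20 was the lowest of its group for 3 of the 4 members detected there, and for 2 of 4 after quantile normalization. The highest plate in N18 thus changed with the scale for most members. For Insm1, plate 3 labelled AtT20 went from the lowest of its group (2.38) to the highest after quantile normalization (14.00).

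The comparison of N18 with BV2 asked which members separated neuroblastoma cells from microglial cells. In limma on the 12 quantile-normalized arrays, 7 of 8 members were higher in N18 at an adjusted p under 0.05 and none was lower, where 19.0% of all genes and targets were higher and 21.9% lower. For 6 of 8 the difference was at least 1 on the log2 scale (background 5.48%). After quantile normalization 8 of 8 had every N18 plate above every BV2 plate, which held for 23.5% of all.

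Hand2 differed by 2.80 ± 0.17 (log2, SE, adjusted p = 1.25e-09 in limma), against a BV2 level so close to the threshold that no fold is given. Gata2 differed by 2.29 ± 0.19 (limma, adjusted p = 5.57e-08), or 4.88-fold. For the members below the threshold in BV2 a fold is only a lower bound, set by that threshold and by the smallest of 3 scales. It was at least 3.2-fold for Isl1, whose difference was 2.37 ± 0.13 (limma, adjusted p = 2.15e-10), and at least 3.2-fold for Insm1, whose difference was 2.00 ± 0.12 (adjusted p = 5.99e-10). Sox11 (1.41 ± 0.11, at least 2.0-fold), Phox2a (1.25 ± 0.10, at least 1.8-fold) and Gata3 (0.88 ± 0.11, at least 1.1-fold) followed, and the largest adjusted p of these 3 in limma was 7.18e-06, for Gata3.

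Hand1 differed by 0.19 ± 0.10 with an adjusted p of 0.147 in limma, and the 95% interval of its difference ran from -0.02 to 0.40. On the seminal protein scale its difference was 0.38 ± 0.08 (limma, adjusted p = 0.000382), and it was called too when the 8 arrays of the pair were fitted alone (adjusted p = 0.0227). It stayed below the threshold in both lines, so no fold is given.

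The direction in N18 against BV2 was the same on all 3 scales for each of the 8 members. The median difference of the members was 1.70 in the quantile-normalized values, 2.52 on the seminal protein scale and 2.49 as deposited, while the median over all genes and targets was -0.06, 0.18 and 0.15. After quantile normalization the seminal proteins gave 0 of 10 calls in this comparison in limma, with 0 at an unadjusted p under 0.05. As deposited they gave 0 calls too, and on the seminal protein scale 1 was lower in N18. On that scale their own mean is subtracted from each plate, so this last count cannot check the scale.

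**Figure D2:**
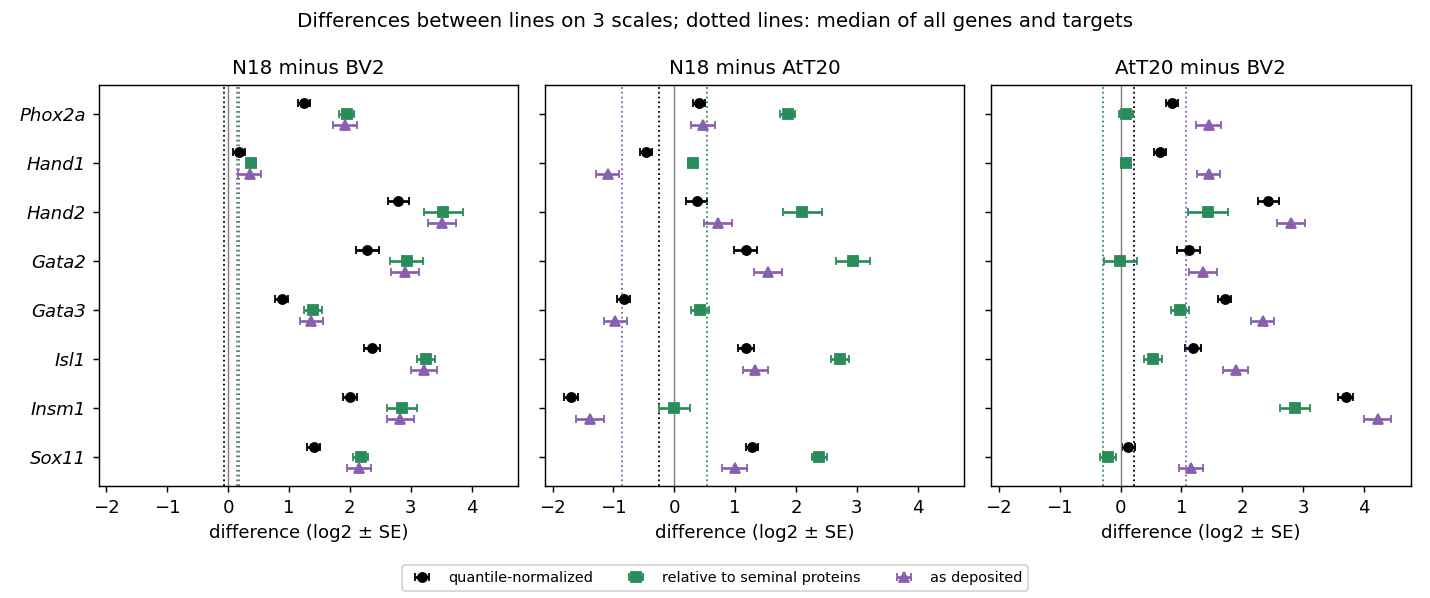
Difference between lines for each gene (log2 ± SE from limma) on 3 scales (quantile-normalized, seminal-relative and as deposited); dotted lines mark the median of all genes and targets on each scale. In N18 minus BV2 the 3 scales lie on the same side of zero for all 8 genes, while in the 2 comparisons with AtT20 several genes cross zero.

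Against the plates labelled AtT20 the result depended on the scale. After quantile normalization 4 of 8 members were higher in N18 (background 27.8%) and 3 of 8 lower (background 48.6%), with a median over all genes and targets of -0.25. Relative to the seminal proteins 7 of 8 were higher in N18 (background 60.7%) and none lower (background 16.3%), with an overall median of 0.54. The seminal proteins themselves were lower in N18 for 8 of 10 after quantile normalization, with a median of -0.42.

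Sox11, Gata2, Isl1 and Phox2a were higher in N18 on both scales. The quantile-normalized difference of Sox11 was 1.28 ± 0.11 (limma, adjusted p = 1.29e-08) and the seminal-relative one 2.39 ± 0.13. Those of Gata2 were 1.17 ± 0.19 and 2.94 ± 0.27, those of Isl1 1.17 ± 0.13 and 2.72 ± 0.15, and those of Phox2a 0.40 ± 0.10 and 1.86 ± 0.12. Each of these passed limma's test on both scales, and the lower bounds of the fold were 1.2 for Sox11, 1.9 for Isl1 and 1.1 for Phox2a. For Phox2a the direction turned with the median of probes (-0.17, adjusted p = 0.267 in limma), and its probe 364 was lower in N18 (-0.44 ± 0.15, adjusted p = 0.0171).

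Hand2 was 0.37 ± 0.17 higher in N18 after quantile normalization, where its adjusted p in limma was 0.0631, and 2.10 ± 0.32 higher relative to the seminal proteins (adjusted p = 5.72e-06). Without plate 2 labelled AtT20, the plate with the highest Hand2, the quantile-normalized difference was 0.55 with an adjusted p of 0.00436 in limma, and without plate 3, the plate with the lowest, it was 0.18 with an adjusted p of 0.251. Insm1 was -1.69 ± 0.12 after quantile normalization (limma, adjusted p = 1.58e-09), lower in N18, and 0.00 ± 0.25 relative to the seminal proteins (adjusted p = 0.996). Gata3 was -0.83 ± 0.11 and then 0.42 ± 0.15, and Hand1 -0.46 ± 0.10 and then 0.30 ± 0.08, so both turned direction with the scale, and both passed limma's test each way.

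Between the plates labelled AtT20 and BV2, Insm1 had the largest difference of the 8. Its quantile-normalized difference was 3.70 ± 0.12 (limma, adjusted p = 2.1e-13), at least 5.6-fold. It was 2.86 ± 0.25 relative to the seminal proteins. In all, 7 of 8 members were higher on the plates labelled AtT20 after quantile normalization and none was lower, where 47.0% of all genes and targets were higher and 26.6% lower. Of the seminal proteins 6 of 10 were higher too, with a median of 0.34. Relative to the seminal proteins 4 of 8 were higher (background 17.6%).

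Those 4 were Insm1, Hand2 (2.43 ± 0.17 and 1.43 ± 0.32 on the 2 scales), Gata3 (1.71 ± 0.11 and 0.97 ± 0.15) and Isl1 (1.19 ± 0.13 and 0.53 ± 0.15). For Gata3 the lower bound of the fold was only 1.0. Isl1 was below the threshold in both lines, at 0.34 ± 0.26 on the plates labelled AtT20 and -0.19 ± 0.04 in BV2. Phox2a (0.84 ± 0.10 and 0.09 ± 0.12) and Hand1 (0.65 ± 0.10 and 0.08 ± 0.08) passed after quantile normalization and as deposited but not relative to the seminal proteins, and the level of both genes was below the threshold in both lines. Gata2 was 1.12 ± 0.19 and then 0.00 ± 0.27. Sox11, at 0.13 ± 0.11 and -0.21 ± 0.13, passed on neither of these scales (adjusted p = 0.281 and 0.152 in limma) and was 1.15 ± 0.20 as deposited, where the median of all was 1.08.

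Each member was measured by 3 probes, numbered in their names. Of the 24 probes, 19 were above the threshold in N18, 10 on the plates labelled AtT20 and 5 in BV2, where 50.7%, 26.7% and 47.8% of all 72000 probes were. In N18 all 3 probes of Phox2a, Hand2, Gata2, Isl1, Insm1 and Sox11 were above it, and 1 of 3 of Gata3. In limma on the probes, 21 of 24 were higher in N18 than in BV2 and none was lower, where 14.5% of all probes were higher and 13.2% lower. The other 3 were Gata3 probe 2608 (0.51 ± 0.19, adjusted p = 0.0537) and the Hand1 probes 1142 (0.06 ± 0.15, adjusted p = 0.822) and 1396 (0.17 ± 0.14, adjusted p = 0.431).

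The probes of one gene disagreed on the plates labelled AtT20. Hand2 probe 95 was at 3.14 ± 1.17 there and at 3.83 ± 0.25 in N18, while probe 466 was at 0.76 ± 0.43 and 4.94 ± 0.24. After quantile normalization N18 was below AtT20 at the first of these probes (-1.15 ± 0.23, adjusted p = 0.000308 in limma) and above it at the second (2.45 ± 0.19, adjusted p = 7.24e-09). The near-threshold level of Hand2 in BV2 also came from probe 95, at 1.35 ± 0.17, with the other probes at -0.14 and 0.09.

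For Gata2, probe 2843 was at 2.47 ± 0.64 on the plates labelled AtT20 and at 2.14 ± 0.62 in BV2. The other probes were at 0.20 and 0.18 on the former, and at 0.15 and 1.22 in BV2. In N18 all 3 were at 3.11 or more. The detection of Gata2 on the plates labelled AtT20 thus rested on 1 probe, and in BV2 on 2.

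For Gata3, probe 1706 was at 1.54 ± 0.70 on the plates labelled AtT20 and at 1.97 ± 0.11 in N18. The other Gata3 probes were below the threshold in every line. Insm1 probes 2104 and 2172 were at 3.02 ± 0.58 and 3.97 ± 0.59 on the plates labelled AtT20, but probe 2418 was at 0.07 ± 0.15, against 1.78 ± 0.33 in N18. Of the genes below the threshold, Phox2a had probe 364 above it on the plates labelled AtT20 (0.44 ± 0.17) and probe 1140 in BV2 (0.68 ± 0.26), Isl1 had probe 1142 above it on the plates labelled AtT20 (0.86 ± 0.50), and Sox11 had probe 7331 above it in BV2 (0.71 ± 0.06). What sets the probes of a gene apart was not tested.

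**Figure D3:**
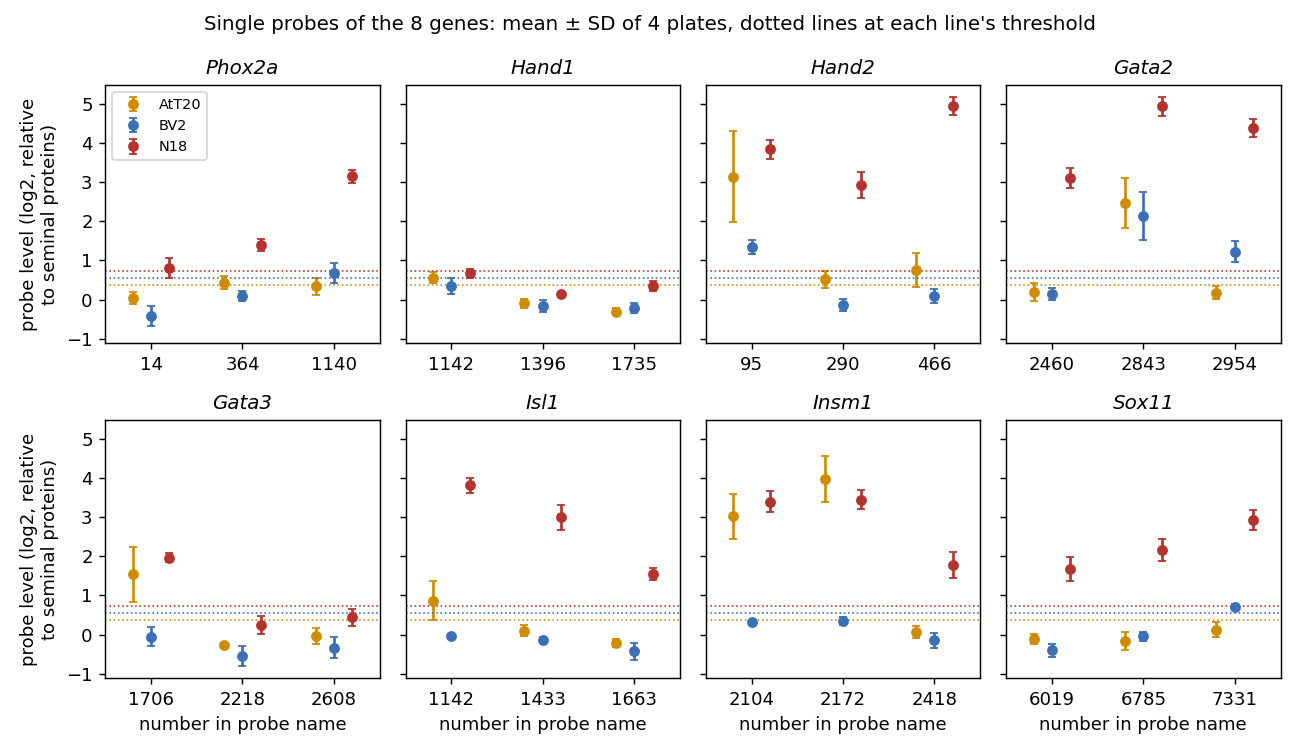
Level of each of the 3 probes of a gene (x axis: the number in the probe's name) as mean ± SD of 4 plates per line, in log2 relative to the seminal proteins, with each line's threshold dotted in its color. The N18 points lie above the threshold at all probes of 6 genes, Phox2a probe 14 only just (0.81 ± 0.26), while on the plates labelled AtT20 single probes of Hand2, Gata2 and Gata3 stand apart from the other probes of the gene.

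Of 16 other transcription factors of the sympathetic lineage, 9 were higher in N18 than in BV2 by the same test (background 19.0%). None was lower (background 21.9%), and the median difference was 0.57. At an unadjusted p under 0.05 in limma 2 were lower. Without the plates labelled AtT20 in the fit 3 were lower, and 1 to 2 without AtT20 plate 1, 3 or 4. The largest were Sox4, the SoxC relative of Sox11 (3.19 ± 0.11), Zfp423, a zinc finger cofactor of neural precursors (1.93 ± 0.13), Meis2, a homeodomain cofactor (1.81 ± 0.11), and Mycn, the driver oncogene of many neuroblastomas (1.69 ± 0.10). Sox4 was at 4.18 ± 0.26 in N18 and 0.25 ± 0.11 in BV2, and Mycn at 2.53 ± 0.22 and 0.01 ± 0.04.

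Of 11 matched factors of the neural crest and of mesenchymal-type cells, 2 were higher in N18 than in BV2 (background 19.0%) and 1 was lower (background 21.9%). The higher ones were Ets1 (0.61 ± 0.10) and Pax3 (0.60 ± 0.12). Foxd3, an early crest factor, was lower (-0.93 ± 0.19), and 2 were lower without AtT20 plate 1. On the seminal protein scale 0 of the list were lower. Foxd3 did not pass there, with levels of 1.12 ± 0.25 in N18 and 1.72 ± 0.11 in BV2. The median of the list was 0.04.

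Among 23 partners and relatives of the members, 7 were higher (background 19.0%) and 5 lower (background 21.9%) in N18 than in BV2, with a median of -0.07. The count of lower genes was 8 without AtT20 plate 1, and 3 without BV2 plate 2 or 3 or without N18 plate 1, 2 or 4. Higher were Zfpm1, the FOG cofactor that binds GATA factors (1.53 ± 0.14), Tcf4, an E protein that pairs with basic helix-loop-helix factors such as Hand2 (1.22 ± 0.16), Ccnd1, a cyclin that Insm1 can bind (1.18 ± 0.10), and Hdac1, a deacetylase of the same complex (0.90 ± 0.10). Lower were Lmo2, a partner of GATA factors in blood cells (-2.56 ± 0.11), the E protein inhibitors Id2 (-2.06 ± 0.11) and Id3 (-1.47 ± 0.15), and Gata1, the GATA factor of red cells (-0.48 ± 0.16). Id2 was detected in BV2 at 2.68 ± 0.33 and not in N18, at 0.74 ± 0.05. Gata1 had almost the same level in both lines on the seminal protein scale, 1.65 ± 0.09 in N18 and 1.67 ± 0.13 in BV2.

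Of 17 known targets matched, 12 were higher in N18 than in BV2 (background 19.0%) and 1 was lower (background 21.9%), with a median of 1.92. Chgb, a granin of secretory granules, differed by 4.95 ± 0.14, Dpysl3, a growth cone protein, by 4.82 ± 0.11, Prph, the peripheral neuron filament, by 4.28 ± 0.15, and Gap43, another growth cone protein, by 4.04 ± 0.11. The target that was lower was Th, the first enzyme of catecholamine synthesis, at -0.48 ± 0.12 (limma, adjusted p = 0.00507), with levels of 0.99 ± 0.13 in N18 and 1.20 ± 0.24 in BV2. It did not pass on the seminal protein scale or as deposited, where 0 of the 17 were lower. Dbh, which makes noradrenaline, was 0.39 ± 0.11 higher in N18 (limma, adjusted p = 0.00946) and detected in both lines, at 2.27 ± 0.25 in N18 and 1.24 ± 0.21 in BV2. Ddc (0.04 ± 0.10), Slc18a1 (-0.17 ± 0.08) and Slc6a2 (-0.22 ± 0.16) were not called in this comparison, and none of them was detected in any line.

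Markers of cell types also differed in the same comparison, and only the neuronal list went mostly in the direction of the members. Of 10 neuronal markers 7 were higher in N18 and 2 lower (median 1.69), where 19.0% of all genes and targets were higher and 21.9% lower. Of 11 microglia markers matched, none was higher and 8 were lower (median -3.36), with none higher at an unadjusted p under 0.05. Of 6 Schwann cell markers 1 was higher and 2 were lower, of 9 corticotroph markers 4 were higher and 1 was lower, and of 10 genes of all cells 1 was higher and 4 were lower. Relative to the seminal proteins 2 genes of all cells were higher and 0 lower. Without 1 plate the neuronal markers lower were 1 (BV2 plate 2 or 3 or N18 plate 2), the corticotroph markers lower 2 (AtT20 plate 3), and the Schwann cell markers higher 0 (BV2 plate 2, 3 or 4 or N18 plate 1, 2 or 3). The part of these markers in the differences of the members was not tested.

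**Figure D4:**
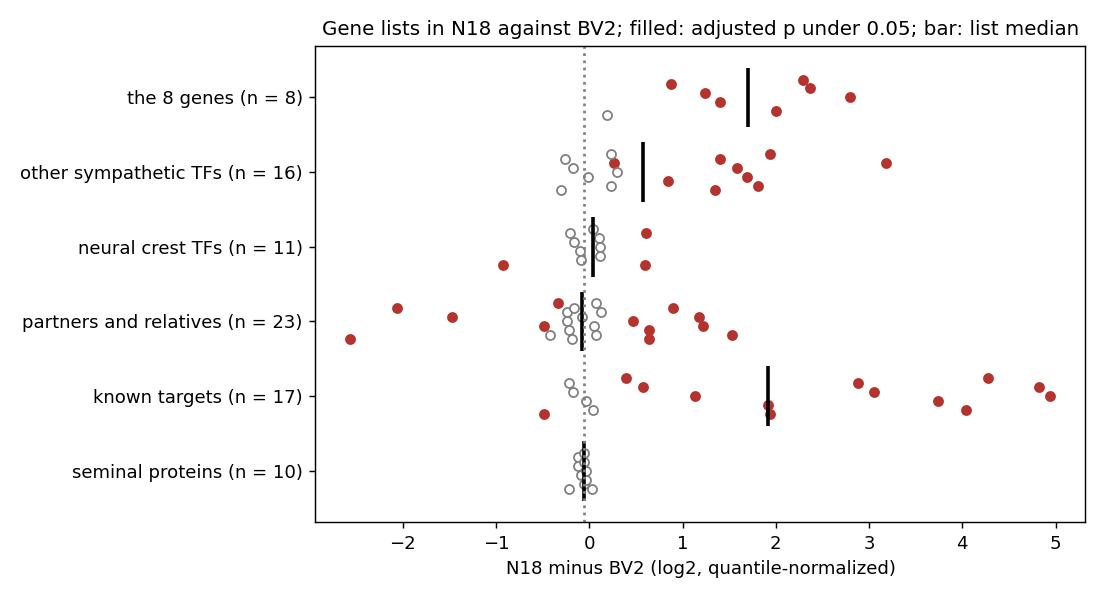
Difference of N18 minus BV2 (log2, quantile-normalized) for each matched gene of 6 lists, filled where the adjusted p in limma is under 0.05, with the list median as a bar and the median of all genes and targets dotted. The 8 genes (median 1.70) and the known targets (median 1.92) lie mostly to the right, and the seminal proteins lie near zero.

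The genes whose levels ran most like each member over the 12 quantile-normalized arrays were taken from 7201 named genes whose line means spanned at least 1. The arrays share 3 lines and these correlations describe mainly how the lines differ. For Phox2a they were Tubb3, a neuronal tubulin (Pearson r = 0.9923), Pard3 and Pfkm, and for Isl1 they were Tmem74 (r = 0.9976), Camk2d and Grip1. For Sox11 they were Dmtn (r = 0.9950), B3galt1 and Pi16, genes that, like Sox11, were high in N18 alone.

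For Insm1 the nearest were Gjc1, a gap junction gene (r = 0.9984), Epb41l2 and Atp1b1, and for Gata3 Mllt3 (r = 0.9929), Btg3 and Csrp2. These followed the order AtT20, N18, BV2. For Hand2 they were Ahdc1 (r = 0.9888), Arhgef28 and Hebp1, and for Gata2 Ppp2r2c (r = 0.9891), Il11ra1 and Hrk, which ran from N18 through AtT20 to BV2. None of these genes was among the nearest 3 of more than 1 member.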

How the data were processed

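Total RNA of 12 plates, 4 for each of 3 mouse lines, was hybridized to NimbleGen arrays of 72000 probes. The deposited values are log2 intensities that the authors made from the Cy3 signal extracted with NimbleScan 2.4; no background correction or normalization between arrays is given in the sources used here. All deposited columns were mapped to labelled samples.

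The linear values of a target's probes were averaged, and 69.4% of 25631 targets were matched to a symbol (RefSeq names only), which gave 25128 genes and unnamed targets. Detection followed the study's rule of 2 SD over 10 seminal proteins (names updated through RefSeq synonyms). Differences between lines came from a linear model in limma 3.58.1 (R 4.3.3; eBayes with a mean-variance trend, two-sided) on quantile-normalized arrays, with Benjamini-Hochberg adjustment over all 25128, and probes over all probes. No fit dropped or imputed a plate, apart from those said to. Plates were grown and extracted separately, and 4 arrays per line limit the precision. The members, gene lists and tests were chosen with earlier results of these data known. Named genes are all members, up to 4 called genes in each direction of each list of transcription factors, partners or targets in N18 against BV2, the 3 genes most like each member detected in at least 1 line, and markers that check a label. Dbh, Ddc, Slc18a1 and Slc6a2 were named for their known roles after their values were seen. The lower bounds of folds were also added after the data were seen. A few list genes were left out of the text and of the list counts.

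Alternatives were the values as deposited, the seminal protein scale, other averaging of probes or targets, other controls and thresholds, normexp background correction (offset 50), a filter on dim genes, no trend, the 8 arrays of a pair, a replicate block, and leaving out each plate. In a simulation of N18 against BV2 over 25128 genes and targets, 97.5% of 200 altered by 1 (log2) were recovered, and 30.5% of those altered by 0.5. Of the calls, 6.7% and 7.58% were false. In the data 19.0% were called higher and 21.9% lower, far more than were altered here, so that these shares need not carry over. Plate numbers did not pair the samples: the correlation of same-numbered plates' deviations ran from -0.105 to 0.319. Tables were made in Python 3.11.15 with pandas 2.3.3, numpy 2.4.6 and scipy 1.17.1, figures with matplotlib 3.10.9.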

Additional observations from a re-analysis of the deposited data

How the results depend on the processing

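In N18, 7 members were detected whichever plate was left out (7 to 7), and Gata3 alone was lost with the median of probes (0.41), with olfactory receptor genes as controls (0.82), at 3 SD or when at least 2 probes had to pass. On the plates labelled AtT20 the count fell from 4 to 2 with the median of probes and with at least 2 probes above the threshold, where Gata3 was at -0.002 in the former, and it was 4 to 5 without 1 plate, Isl1 passing without plate 3 (0.43) or plate 4 (0.39). In BV2 the count fell from 2 to 1 with the median of probes or the mean of their log2, with olfactory receptor genes as controls, 3 SD, every plate above its threshold or at least 2 probes above it, and it was 1 to 2 without 1 plate, with Hand2 lost without BV2 plate 1 (0.54).

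For N18 against BV2, 7 members were called whichever plate was left out (7 to 7), all higher in N18. In the fit with all plates 19.0% of all genes and targets were higher. For N18 against AtT20, 7 were called, 4 higher (background 27.8%) and 3 lower (background 48.6%), so most genes and targets were called as well. When a difference of at least 1 was asked for, 3 were higher and 1 lower, and the share of all was not counted. Without 1 plate 7 to 8 were called. Directions turned for Hand1 (0.30 relative to the seminal proteins, 0.12 with the median of probes), Gata3 (0.42 relative to the seminal proteins), Insm1 (0.0016 relative to the seminal proteins) and Phox2a (-0.17 with the median of probes). Only Hand1 and Gata3, relative to the seminal proteins, passed limma's test in the new direction. For AtT20 against BV2, 7 were called, all higher (background 47.0%), and 7 to 7 without 1 plate. Relative to the seminal proteins 4 were called, all higher (background 17.6%). On that scale the signs of Gata2 (-0.004) and Sox11 (-0.206) turned, but neither passed limma's test (adjusted p = 0.99 and 0.152). The sign of Gata2 also turned with the median of probes (-0.22, adjusted p = 0.211 in limma). The causes were not tested. The count of partners and relatives lower in N18 than in BV2 was 5, 3 as deposited, 8 with the 8 arrays of the pair alone and 3 to 8 without 1 plate. For the neural crest list 2 were higher, and 4 on the seminal protein scale or with the median of probes. In that list 1 was lower, 0 on the seminal protein scale and 3 with the 8 arrays. For the genes of all cells 1 was higher and 4 as deposited, and 4 were lower and 0 as deposited. For the known targets 1 was lower and 3 with the 8 arrays.

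With the plate number as a replicate block, 7 members were called for N18 against BV2, 8 for N18 against AtT20 (Hand2 at an adjusted p of 0.0483 in limma) and 7 for AtT20 against BV2, and it changed no other member's call. The share of all genes and targets called with this block was not counted. Of 24 comparisons of a plate with the plates of another line, 7 were highest for its own number. Signal over background limits Hand1, Gata3 and, in BV2, all members but Gata2. It also limits Phox2a, Isl1 and Sox11 on the plates labelled AtT20. The differences of these members there are bounded by the threshold.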
